A study of Homo sapiens with 1 sample.

Results

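The collagen genes were taken as the protein-coding genes of GENCODE release 44 whose symbol reads COL, digits, A, digits, which gave 44 of 20033 protein-coding genes. They were divided into 11 fibrillar collagens, 8 basement membrane collagens (the 6 chains of collagen IV with COL15A1 and COL18A1) and 25 other collagens. ATAC-seq, which maps open chromatin through the insertion of adapters by the enzyme Tn5, had been run on 786-O cells, an established human renal cell carcinoma line known to lack functional VHL, that carried an empty vector. The study is on DPF3, a component of SWI/SNF, which remodels chromatin, and on metastasis and TGF-β signalling in kidney cancer, and this control library shows the cells without added DPF3. The peak list of 1 library was analysed, with no replicate, so no p-value is given and no interval covers the spread between libraries. Intervals of folds cover counting error, while those of shares, densities and medians treat genes or peaks as independent, although some genes share a peak.

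Collagens are secreted proteins whose chains wind round each other in a helix of repeated glycine-containing units. The fibrillar collagens form the tensile fibres of skin, bone, tendon and scar, and are made mainly by fibroblasts, osteoblasts and chondrocytes. Collagen IV forms the sheet-like network of basement membranes, including that of the renal glomerulus and tubule, and the remaining collagens decorate fibrils, anchor epithelia, span the cell membrane or build smaller networks. In kidney disease, myofibroblasts are the best known source of scar collagen.

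A peak was assigned by its summit, the position of its highest read depth. The promoter of a gene comprised 1 kb before and 100 bp after any of its annotated transcription start sites (TSSs), and a gene-body peak had its summit inside the gene record and outside every annotated promoter. The canonical TSS is that of the one reference transcript of each gene. The strength of a peak is its fold enrichment over 1 genome-wide background, which is set by the pileup, the number of fragments or reads stacked at the summit. The list held 88615 peaks on the 24 primary chromosomes, with folds from 5.15 at a pileup of 9 to 155.1 at a pileup of 300, and 35.7% of peaks had a pileup under 15. Of the renal epithelial markers, PAX8 (fold 31.9), PAX2 (22.7), KRT8 (43.3), KRT18 (8.24) and CDH2 (25.8) had a promoter peak. Fibroblast markers had one in 1 of 6 genes (PDGFRB, fold 6.18), endothelial markers in 0 of 4 and leukocyte markers in 1 of 4 (CD14, fold 6.70). Over all protein-coding genes the share was 61.4%. PTPRC, a leukocyte marker, lies in sequence with an alternative copy in hg38, where 1.49% of protein-coding genes had a promoter peak. Markers without a promoter peak could still hold strong gene-body peaks, up to fold 45.9 at PECAM1. The part of cell type in the collagen counts was not tested. In a bulk library, a site open in few cells and a site weakly open in all cells cannot be told apart.

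The collagen IV genes lie as 3 head-to-head pairs, transcribed away from a shared stretch of DNA. The promoter sequences of these pairs, and that of COL27A1, the fibrillar collagen with a peak just before its canonical TSS, are shown because the 4 sites differed in accessibility. Of the 44 collagen genes, 32 had a promoter entry in the RefSeq table (GRCh38.p14). The sequences are written 5′ to 3′ on the plus strand. Capitals mark the letters of a GC box, GGGCGG, on either strand. They also mark those of a box of the letters CCAAT, and would mark a TATA box with the letters TATAAA, which occurred in none of the 4. The COL4A1–COL4A2 stretch is chr13:110307158-110307283, the COL4A4–COL4A3 stretch chr2:227164454-227164623, the bases before COL4A5 chrX:108439588-108439837 and those before COL27A1 chr9:114155287-114155536.
COL4A1–COL4A2: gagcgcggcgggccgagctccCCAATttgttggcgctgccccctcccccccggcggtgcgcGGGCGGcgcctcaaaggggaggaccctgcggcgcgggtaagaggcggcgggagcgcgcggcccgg
COL4A4–COL4A3: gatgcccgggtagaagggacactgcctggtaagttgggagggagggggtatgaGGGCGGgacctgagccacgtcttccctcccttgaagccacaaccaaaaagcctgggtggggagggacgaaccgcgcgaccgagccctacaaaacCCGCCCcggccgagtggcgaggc
COL4A5: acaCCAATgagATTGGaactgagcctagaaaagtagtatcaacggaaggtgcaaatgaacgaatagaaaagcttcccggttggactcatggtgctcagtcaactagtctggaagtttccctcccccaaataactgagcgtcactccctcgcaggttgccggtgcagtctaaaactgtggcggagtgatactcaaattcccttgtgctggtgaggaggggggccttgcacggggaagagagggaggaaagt
COL27A1: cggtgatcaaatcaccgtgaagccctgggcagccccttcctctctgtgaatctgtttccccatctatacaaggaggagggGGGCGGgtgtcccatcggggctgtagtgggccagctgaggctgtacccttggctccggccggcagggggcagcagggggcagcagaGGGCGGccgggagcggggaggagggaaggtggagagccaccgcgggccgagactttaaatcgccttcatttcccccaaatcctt

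The 126 bases between COL4A1 and COL4A2 held 1 GC box and 1 CCAAT box and were 80.2% GC. The 170 bases between the COL4A4 and COL4A3 gene records held 2 GC boxes. The 250 bases before COL4A5 held 2 CCAAT boxes, one on each strand, and were 51.2% GC. The 250 bases before COL27A1 held 2 GC boxes. Over all 35093 RefSeq promoter sequences, a GC box was present in 34.6% of stretches of 126 bases, 38.3% of 170 and 42.6% of 250 before the TSS, and a CCAAT box in 21.1% of 126 bases and 32.0% of 250. The motifs were thus common, and the COL4A4–COL4A3 stretch, which held 2 GC boxes, had no peak.

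A promoter peak was present at 18 of the 44 collagen genes (40.9%; exact 95% interval, 26.3 to 56.8), against 61.4% of all protein-coding genes. The share was 2 of 11 for fibrillar collagens (18.2%; 2.28 to 51.8; 4 of 11 if the promoter reached 1 kb either way, 1 of 11 at the canonical TSS alone), 5 of 8 for basement membrane collagens (62.5%; 24.5 to 91.5) and 11 of 25 for the other collagens (44%; 24.4 to 65.1). The intervals of the 3 classes overlapped. The strongest promoter peaks of the 18 genes were 16 distinct peaks, since COL4A1 and COL4A2 shared one and COL4A5 and COL4A6 another, and with the weaker ones there were 22. At the canonical TSS alone, 12 collagen genes had a promoter peak (27.3%), against 52.2% of all protein-coding genes. Peaks at collagen promoters were also lower: the median fold was 13.4 (order-statistic interval, 7.73 to 20.1), against 25.8 over the protein-coding genes with a promoter peak. It was 21.9 for the 2 fibrillar genes, 12.9 for the 5 basement membrane genes and 14.4 for the 11 other genes. COL7A1 and COL12A1 alone had a fold above the median of all protein-coding genes, and with COL1A1 they were the 3 genes above the median promoter fold of their own chromosome.

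**Figure D1:**
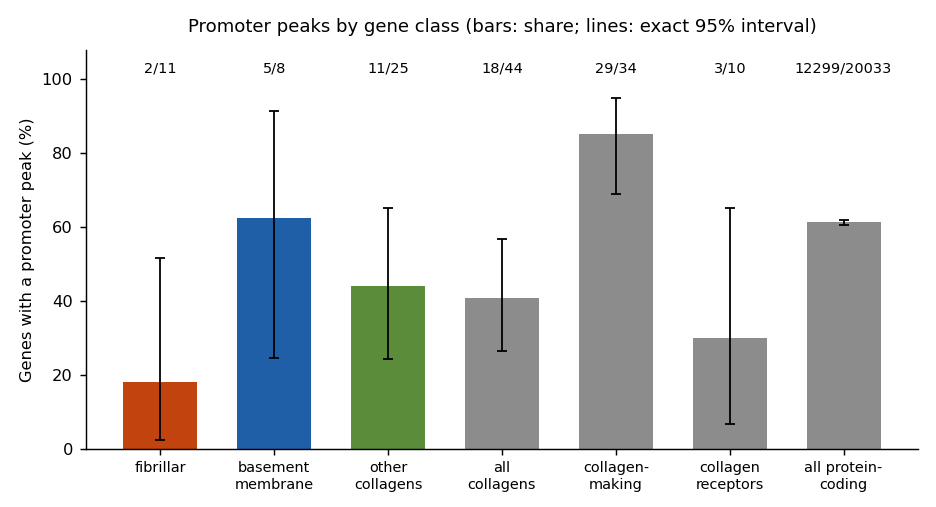
The share of genes with a promoter peak in percent is plotted as bars for each collagen class, for all collagens, for the collagen-making and collagen receptor genes and for all protein-coding genes, with the exact 95% interval as lines and the counts above. Fibrillar collagens were lowest at 18.2% and the genes that make collagen highest at 85.3%, with all protein-coding genes at 61.4%.

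Among the fibrillar collagens, COL1A1 and COL27A1 had a promoter peak and the other 9 had none. COL1A1 encodes the major chain of collagen I, the main collagen of bone, skin and scar. Its peak (chr17:50199958-50201197) had fold 25.8 (19.2 to 33.9) at a pileup of 49. The summit did not lie at the canonical start: it was in intron 1, 1177 bp downstream of the canonical TSS and 263 bp upstream of another annotated TSS. COL27A1, a fibrillar collagen best known from cartilage, had fold 18.0 (12.6 to 25) and a summit 71 bp before its canonical TSS, within the sequence shown. COL1A2, which encodes the partner chain of COL1A1 in collagen I, had no promoter peak. A summit of fold 9.79 lay 758 bp downstream of its canonical TSS, inside the gene but in the promoter of an unnamed long noncoding RNA gene.

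Of the remaining fibrillar genes, COL11A1 had a summit closest to a TSS. COL3A1, which encodes collagen III of vessel walls and early scar, had its nearest summit 4872 bp upstream of the canonical TSS, with fold 8.76. COL5A1, whose product regulates fibril diameter, had its nearest summit 3949 bp upstream, and that peak was strong, with fold 49. For COL2A1, the cartilage collagen, the nearest summit lay 40921 bp downstream of the canonical TSS, beyond the gene, and for COL5A3 17250 bp upstream. COL11A1 had a summit 205 bp from one of its TSSs, just past the downstream limit of the promoter. Of its 2 gene-body peaks, that of fold 22.2 lay in exon 66, 228709 bp downstream of the canonical TSS. It was the peak that counted when the promoter reached 1 kb either way. The other, of fold 7.21, lay in intron 1, 1962 bp downstream. COL5A2 and COL24A1 had their nearest summits 15690 bp and 19159 bp downstream of their canonical TSSs. COL11A2 lies in the major histocompatibility complex, and its nearest summit was 337271 bp away. It is the 1 collagen gene in sequence with an alternative copy in hg38, and of the 807 protein-coding genes in such sequence 12 (1.49%) had a promoter peak.

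**Figure D2:**
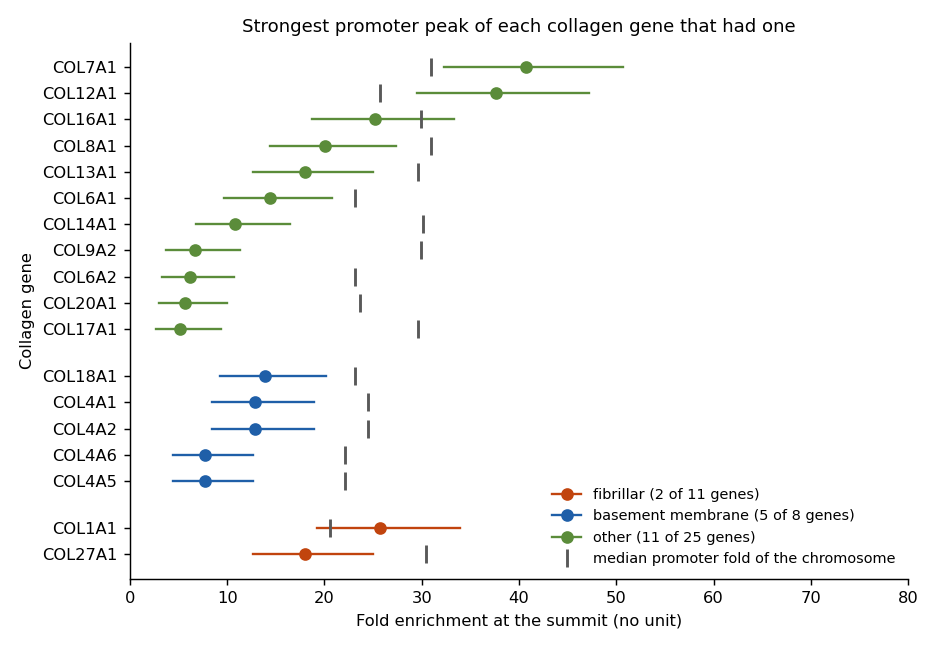
Each point is the promoter peak of highest fold of a collagen gene with its 95% counting interval, on an axis of fold enrichment without unit, grouped by class. COL7A1 at 40.7 and COL12A1 at 37.6 were highest, and COL17A1 at 5.15 was at the lowest fold of the list.

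The basement membrane collagens showed a weak shared peak, no peak or a weaker shared peak at the 3 collagen IV pairs. COL4A1 and COL4A2 encode the chains of the collagen IV found in nearly all basement membranes, and their canonical TSSs are 127 bp apart. Their shared peak (chr13:110306341-110308926) had fold 12.9 (8.44 to 18.9) at a pileup of 24, with the summit 86 bp upstream of COL4A1 and 41 bp upstream of COL4A2, inside the sequence shown. COL4A3 and COL4A4 encode chains of the glomerular basement membrane that are altered in Alport syndrome. Neither had a promoter peak, and the nearest summit lay 57255 bp from the canonical TSS of COL4A3 and 56836 bp from that of COL4A4. From any TSS, the nearest summit was 1656 bp away for COL4A3 and 14686 bp for COL4A4. COL4A3 gained a promoter peak with 2.5 kb to both sides. COL4A5 and COL4A6, the X-linked pair, shared a peak of fold 7.73 (4.46 to 12.6) at a pileup of 14, with the summit 180 bp upstream of COL4A5 and 1236 bp upstream of the canonical TSS of COL4A6, where it counted through another TSS 161 bp away. The intervals of the COL4A1–COL4A2 and COL4A5–COL4A6 peaks overlapped.

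Around the midpoint of each pair, the peaks within 50 kb numbered 11 for COL4A1 and COL4A2, 0 for COL4A3 and COL4A4 and 1 for COL4A5 and COL4A6. On the COL4A2 side of the first pair, summits at 12949, 16078, 24272, 34028, 40609 and 43359 bp from the TSS had folds of 36.1, 49.98, 19.6, 29.9, 51 and 6.18. The counting intervals of 4 of the 6 lay above that of the shared promoter peak, while those at 24272 bp and 43359 bp overlapped it. The peak at 43359 bp had a lower fold than the shared one. On the COL4A1 side, a summit in intron 1, 2698 bp downstream of the TSS, had fold 23.2 (17 to 31.0), and the other peaks there had folds of 7.21, 8.76 and 12.9.

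**Figure D3:**
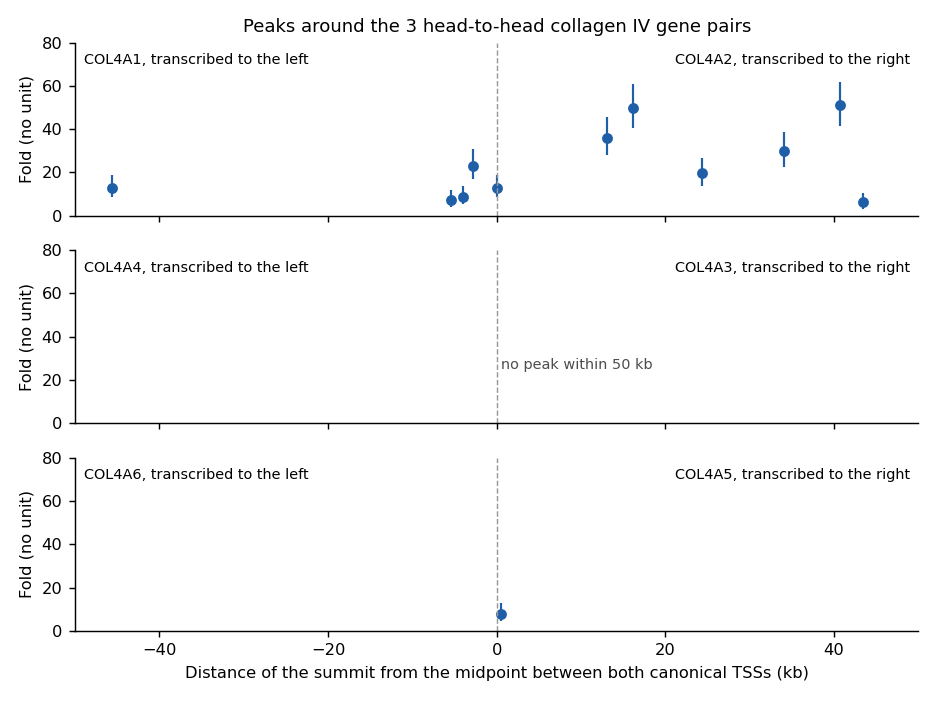
Every peak within 50 kb of the midpoint between the canonical TSSs of the 3 collagen IV pairs is plotted by distance in kb and fold, with 95% counting intervals. The COL4A1 and COL4A2 pair had 11 peaks with the highest folds on the COL4A2 side, the COL4A3 and COL4A4 pair had 0 and the COL4A5 and COL4A6 pair had 1.

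COL15A1 and COL18A1 encode the proteoglycan collagens of the basement membrane zone, and the end of the COL18A1 protein is the source of endostatin. COL18A1 had a promoter peak of fold 13.9 (9.27 to 20.1). It lay 50286 bp downstream of the canonical TSS, in an intron, and 71 bp upstream of the TSS of a shorter transcript. The nearest summit to its canonical TSS was 420 bp downstream with fold 11.9, outside the promoter window. COL15A1 had no promoter peak, and its nearest summit was 1569 bp from any TSS and 27435 bp from the canonical one.

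Among the other collagens, the highest promoter folds were at an anchoring fibril gene and a fibril-associated gene. COL7A1, whose product anchors the epidermal basement membrane to the dermis, had fold 40.7 (32.3 to 50.7) at chr3:48595018-48596530, with the summit 486 bp upstream of its canonical TSS. COL12A1, a collagen that coats fibrils under tension, had fold 37.6 (29.5 to 47.2) at chr6:75205160-75206474, and its summit was 65 bp before the canonical TSS. These 2 counting intervals overlapped, and both peaks were higher than over 90% of the list: 92.7% of peaks were lower for COL7A1 and 91.2% for COL12A1.

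The fibril-associated collagens with interrupted helices (FACIT) had a promoter peak in 5 of 10 genes, from fold 5.67 at COL20A1 to 37.6 at COL12A1. At COL16A1 (fold 25.2) the summit lay 13932 bp into the gene, at an internal TSS. At COL14A1 the promoter peak (fold 10.8) lay 219367 bp downstream of the canonical TSS, while the peak nearest to the canonical TSS, 1314 bp upstream, was stronger at fold 30.4. COL9A2 had fold 6.70 at an internal TSS. COL9A1, COL9A3, COL19A1, COL21A1 and COL22A1 had none.

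The transmembrane collagens had a promoter peak in 2 of 4 genes. COL13A1 had fold 18.0 at an internal TSS 72738 bp from the canonical one, where the fold was 7.21. COL17A1, a hemidesmosome collagen of basal epithelium, had fold 5.15 (2.64 to 9.32), and COL23A1 and COL25A1 had none. The beaded-filament collagen VI genes had one in 2 of 5, with fold 14.4 (9.68 to 20.8) at COL6A1 and 6.18 (3.34 to 10.7) at COL6A2, whose peak also lay in the promoter of the divergent transcript COL6A2-DT. COL6A3, which is needed with both for the common collagen VI filament, had no promoter peak and had its nearest summit in intron 1, 3894 bp downstream of the canonical TSS, with fold 6.70, and COL6A5 and COL6A6 had none either. Of the short-chain network collagens 1 of 3 had one, COL8A1 at fold 20.1 (14.4 to 27.4), whose summit was 7 bp before the canonical TSS. COL8A2, COL10A1, COL26A1 and COL28A1 had none.

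For the 26 collagen genes without a promoter peak, the nearest summit lay at a median of 4372 bp from any TSS, from 205 to 337239 bp, and over 10 kb away in 9 genes. No such distances over protein-coding genes were computed, so whether these are usual for genes without a promoter peak was not tested. No summit at all in a promoter or inside the gene record was found for 5 of the 44 collagen genes, against 24.0% of protein-coding genes. These were COL2A1, COL3A1, COL5A3 and COL11A2 of the fibrillar class and COL9A1. COL9A1, a FACIT collagen of cartilage, had its nearest summit 9237 bp upstream, with fold 35.0. A weak site below the lowest fold of 5.15 is absent from the list, whose lowest score was 52. That is stricter than the q-value limit in the paper's methods for these peaks, so weaker called peaks may have been left out.

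Promoter base composition was set beside these counts, as promoters rich in CpG are known to be open in many cell types. The CpG ratio is the observed over the expected number of CpG dinucleotides, here from 500 bp upstream to 100 bp downstream of the canonical TSS. Its median was 0.503 for fibrillar, 0.780 for basement membrane and 0.602 for the other collagens, against 0.727 for all protein-coding genes. At a ratio of 0.6 or more, 9 of 22 collagen genes had a promoter peak (40.9%; 20.7 to 63.6), against 79.1% of the protein-coding genes in that class. The 9 included none of the 3 fibrillar members COL2A1, COL5A1 and COL24A1. Between 0.3 and 0.6 the share was 5 of 13 (38.5%), against 38.4%. Below 0.3 it was 4 of 9 (44.4%; 13.7 to 78.8), against 20.9%, which lies inside that interval. The intervals of these collagen shares overlapped between the 3 composition classes, while the share of all protein-coding genes was higher in each class of higher CpG ratio. The ratio is that of the canonical TSS, whereas these peaks lay at any TSS. At the canonical TSS alone, the collagen shares were 7 of 22 (31.8%), 3 of 13 (23.1%) and 2 of 9 (22.2%), from the highest ratio to the lowest. The protein-coding shares were 70.3%, 27.9% and 11.3%.

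A gene-body peak was present in 35 of 44 collagen genes (79.5%; 64.7 to 90.2), against 49.7% of all protein-coding genes. The counts were 5 of 11 for fibrillar (45.5%; 16.7 to 76.6), 7 of 8 for basement membrane (87.5%; 47.3 to 99.7) and 23 of 25 for the other collagens (92.0%; 74.0 to 99.0). Every pair of classes had overlapping intervals. Collagen genes are long, with a median of 144.75 kb against 27.5 kb for all protein-coding genes. Of the 26 collagen genes of at least 100 kb, 25 had a gene-body peak (96.2%), against 90.1% of the 3667 protein-coding genes of that length. Of the 18 shorter ones, 10 had one (55.6%), against 40.7% of 16366. All 5 fibrillar genes of at least 100 kb (COL5A1, COL5A2, COL11A1, COL24A1 and COL27A1) had a gene-body peak and 0 of the 6 shorter ones did.

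Per length, the 241 gene-body peaks came to 3.60 per 100 kb (Poisson interval, 3.16 to 4.09), against 2.90 for all protein-coding genes. The density was 2.96 (2.13 to 4.0) for fibrillar, 4.74 (3.69 to 6.0) for basement membrane and 3.41 (2.85 to 4.04) for the other collagens. With COL15A1 and COL18A1 counted among the other collagens, the density was 3.94 (2.90 to 5.22) for basement membrane and 3.73 (3.15 to 4.37) for the others. In genes of at least 100 kb it was 3.73 for collagens against 2.73 for protein-coding genes, and in shorter genes 2.60 against 3.25. The median fold of gene-body peaks was 9.28 for collagens and 9.28 for protein-coding genes. Of the 241 peaks, 8 had the summit in an exon (3.32%; 1.44 to 6.44), against 8.48% of the gene-body peaks of protein-coding genes, and 7 also lay inside the record of another gene. Across the 44 genes, Spearman's rho between length and number of gene-body peaks was 0.603, as a description of 1 library whose genes share its depth.

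**Figure D4:**
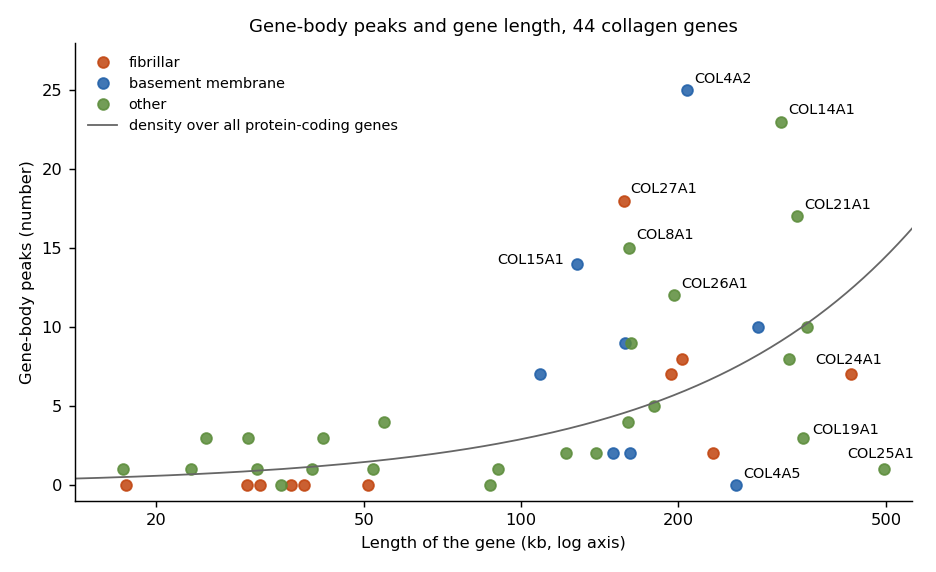
The number of gene-body peaks of each collagen gene is plotted against its length in kb on a log axis, coloured by class, with a curve for the 2.90 peaks per 100 kb of all protein-coding genes. COL4A2 with 25 peaks and COL14A1 with 23 lay far above the curve, and COL4A5 with 0 and COL25A1 with 1 far below it.

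COL4A2 had the most gene-body peaks, 25, or 12.1 per 100 kb, and 10 of them had a fold of at least 20. COL4A1, which reads the other way from the same promoter, had 9, or 5.69 per 100 kb, with 1 of fold 20 or more. COL14A1 had 23 (7.33 per 100 kb), COL27A1 18 (11.5), COL21A1 17 (5.04) and COL8A1 15 (9.33). At the low end, COL4A5 had 0 in 257.7 kb and COL25A1, a transmembrane collagen best known from neurons, had 1 in 494.0 kb. The density over protein-coding genes was 1.63 per 100 kb on chromosome X and 2.23 on chromosome 13. COL4A6, the X-linked partner of COL4A5, had 10 (3.52 per 100 kb), of folds 5.15 to 17.

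In total 59 of the 241 gene-body peaks, in 21 collagen genes, had a fold of at least 20 (24.5%; 19.2 to 30.4), against 20.3% of those of protein-coding genes. The strongest was in COL15A1 (chr9:98989022-98990350), in intron 5 and 45756 bp downstream of the canonical TSS, with fold 99.97 (86.4 to 115.0), higher than 99.9% of all peaks. COL15A1 had no promoter peak. COL8A1, which encodes a collagen of vessel walls and of Descemet's membrane, had fold 76.3 (64.5 to 89.5) in intron 1, 20626 bp downstream, against 20.1 at its promoter. COL14A1 had fold 62.3 (51.8 to 74.5) in exon 44, 217297 bp downstream. COL18A1, in intron 2, and COL26A1, in intron 4, both had fold 54.1 (44.3 to 65.4).

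COL4A2 followed with fold 51 (41.5 to 62.1) in intron 3 and COL27A1 with 46.9 (37.8 to 57.5) in intron 41. The 5 peaks of COL27A1 with a fold of at least 20 all lay between 121964 and 132742 bp downstream of the canonical TSS, far from the promoter peak. COL24A1 had fold 41.2 in intron 58, 421624 bp downstream, COL21A1 fold 40.2 at position −32330 relative to the canonical TSS but inside the gene record, and COL28A1 fold 30.4. The median of the strongest gene-body fold per gene was 21.6 (11.3 to 28.9) over the 35 collagen genes, against 15.5 over the 9961 protein-coding genes with a gene-body peak. The interval contains 15.5, and this maximum, which more peaks enter in longer genes, was not split by length. By class the median was 24.2 for fibrillar, 23.2 for basement membrane and 21.6 for the other collagens.

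**Figure D5:**
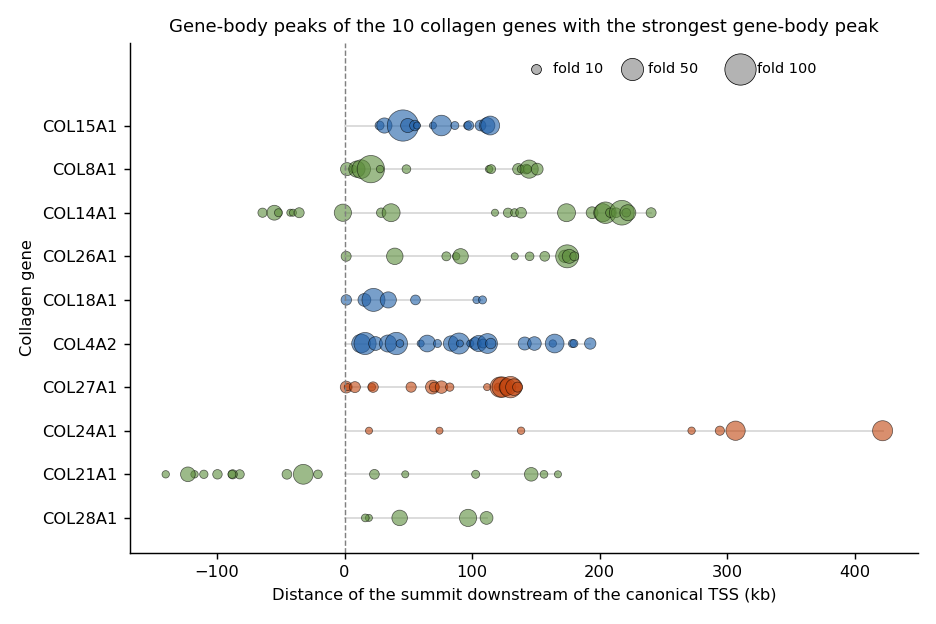
Each circle is a gene-body peak of the 10 collagen genes with the strongest gene-body peak, placed by its distance in kb from the canonical TSS, with the area growing with fold and the colour showing the class (orange fibrillar, blue basement membrane, green other). The strongest sites of COL15A1 and COL8A1 lay in the first 50 kb, and those of COL14A1, COL26A1, COL27A1 and COL24A1 far into the gene.

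Gene-body peaks without a promoter peak were found in 20 collagen genes, a promoter peak without a gene-body peak in 3 (COL1A1, COL4A5 and COL6A2) and both in 15. Of 20033 protein-coding genes, 12299 had a promoter peak, 9961 a gene-body peak and 7248 both. In 12 of the 15 (80%; 51.9 to 95.7) the strongest gene-body peak had a higher fold than the promoter peak, against 34.9% of the 7248 protein-coding genes with both kinds. Among genes of at least 100 kb, where more gene-body peaks enter the maximum, it was 8 of 9 collagen genes against 47.3%, and among shorter ones 4 of 6 against 28.5%. Of the 12 genes, COL4A1, COL4A6, COL9A2, COL13A1, COL16A1 and COL20A1 had overlapping counting intervals of the gene-body and promoter peaks. The chains of collagen V all lacked a promoter peak. COL5A1 had 8 gene-body peaks of folds up to 9.28, COL5A2 had 7 of folds up to 24.2 and the shorter COL5A3 had 0. Of the 219 gene-body summits inside the canonical transcript, 33 lay in its first intron, a count for which no share over protein-coding genes was computed.

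The sequences at the strongest gene-body summits are shown for 6 of the 8 genes with the strongest ones, each of which had a higher fold than every collagen promoter peak. COL8A1, which held AP-1 letters at its summit, and COL14A1, which did not, are not shown. Each is 50 bases to each side of the summit in hg38, 5′ to 3′ on the strand of the gene, which is plus except for COL24A1. Capitals mark AP-1 (TGANTCA), TEAD (ACATTCC) or RUNX (AACCACA) letters on either strand. They lie at chr9:98989613-98989713 for COL15A1, chr21:45427796-45427896 for COL18A1, chr7:101537281-101537381 for COL26A1, chr13:110347843-110347943 for COL4A2, chr9:114285534-114285634 for COL27A1 and chr1:85735098-85735198 for COL24A1.
COL15A1: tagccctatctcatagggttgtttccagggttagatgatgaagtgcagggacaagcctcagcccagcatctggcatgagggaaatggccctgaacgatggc
COL18A1: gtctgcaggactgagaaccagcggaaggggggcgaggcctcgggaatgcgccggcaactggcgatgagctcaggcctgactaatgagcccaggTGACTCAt
COL26A1: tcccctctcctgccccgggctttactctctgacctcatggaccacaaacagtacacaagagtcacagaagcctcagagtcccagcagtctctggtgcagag
COL4A2: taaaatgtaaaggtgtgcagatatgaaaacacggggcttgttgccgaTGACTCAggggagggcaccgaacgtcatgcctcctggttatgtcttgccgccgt
COL27A1: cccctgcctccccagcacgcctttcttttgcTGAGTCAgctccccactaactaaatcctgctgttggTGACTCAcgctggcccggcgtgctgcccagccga
COL24A1: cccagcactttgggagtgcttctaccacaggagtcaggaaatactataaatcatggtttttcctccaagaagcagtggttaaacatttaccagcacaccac

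AP-1, the Fos and Jun dimer, matched 2 times at COL27A1 and 1 time each at COL18A1 and COL4A2, and 0 times at COL15A1, COL26A1 and COL24A1, where TEAD and RUNX letters were absent too. Over all 241 collagen gene-body summits, 60 held the AP-1 letters within 50 bp (24.9%; 19.6 to 30.9), against 22% of 37861 gene-body summits of protein-coding genes. At folds of at least 20 the share was 18 of 59 (30.5%) for collagens and 30.4% for protein-coding genes, and at lower folds 23.1% and 19.9%. Of the strongest summits per gene, 14 of 35 held it (40%; 23.9 to 57.9), against 24.5% of those of 9961 protein-coding genes. The interval contained that share, and 1 of the 14, COL19A1, had another summit of equal fold without the letters. By class the AP-1 share was 21.4% of 42 fibrillar, 20.3% of 69 basement membrane and 28.5% of 130 other summits, with overlapping intervals. RUNX letters were at 7.47% of collagen gene-body summits against 5.91%, TEAD letters at 3.32% against 3.31% and the SMAD box (CAGAC), bound by the transducers of TGF-β, at 19.1% against 21.8%. For each of these 4 motifs the interval of the collagen share contained the share of the protein-coding genes.

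At the 22 promoter summits of collagen genes the counts were small. Within 50 bp, only the TATA box had an interval that excluded the share of protein-coding genes. A TATA box was within 50 bp of 4 (18.2%; 5.19 to 40.3), against 1.67% of 14044 promoter summits of protein-coding genes. A GC box was at 4 (18.2%; 5.19 to 40.3), against 32.5%, and a CCAAT box at 2 (9.09%; 1.12 to 29.2), against 16.5%. AP-1 letters were at 2 (9.09%; 1.12 to 29.2) against 5.82% (31.8% against 10.1% within 100 bp), SMAD boxes at 6 (27.3%; 10.7 to 50.2) against 18.4% and the E-box of ZEB and SNAIL factors (CAGGTG) at 3 (13.6%) against 6.54%. The letters of the hypoxia element (ACGTG) were at 0 of 22 promoter summits, for which the exact interval allows a share of up to 15.4%, against 9.31%. Within 100 bp they were at 6 (27.3%; 10.7 to 50.2) against 18.2%, so that the direction turned with the width. They were at 7.88% of gene-body summits against 6.65%.

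The genes whose products build or bind collagen were counted in the same way. Of 34 collagen-making genes, 29 had a promoter peak (85.3%; 68.9 to 95), against 61.4% of all protein-coding genes, with a median fold of 31.4 (16.5 to 43.3) against 25.8. The highest were P4HB, a subunit of the prolyl hydroxylase that stabilises the helix, at 70.6, PLOD2, a lysyl hydroxylase that directs cross-links, at 69.0, FKBP14, a chaperone, at 62.9 and P3H1, a prolyl hydroxylase, at 61.3. Those without one were P4HA3, COLGALT2, ADAMTS2, ADAMTS14 and LOXL4. At the canonical TSS alone 22 of the 34 had a peak (64.7%; 46.5 to 80.3), an interval that contains the 52.2% of all protein-coding genes. Collagen receptors had a promoter peak in 3 of 10 genes (30.0%; 6.67 to 65.2), an interval that contains 61.4%. These were ITGB1 at 33.5, the shared β chain of the collagen-binding integrins, MRC2 at 18.6, which takes up collagen fragments, and ITGA2 at 16. ITGA1, ITGA10, ITGA11, DDR1, DDR2, GP6 and LAIR1 had none, and DDR1, GP6 and LAIR1 lie in sequence with an alternative copy in hg38.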

How the data were processed

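Chromatin accessibility was measured in 1 ATAC-seq library of empty-vector 786-O cells (labels). Per the study's methods, reads were trimmed (fastp) and aligned by the authors (Bowtie2, hg38), and after removal of mitochondrial, low-quality and duplicate reads peaks were called with MACS2 against a genome-wide background. The submitters' processing notes name Bowtie2 2.3.4.3 and MACS2 2.2.6. A shift of reads for Tn5 is not given in the sources used here. The deposited list of 88676 peaks holds a fold enrichment (a ratio), a −log10 p-value, a −log10 q-value and a score, of which the fold and the score were used. The lowest score was 52. Peaks are named as wild type in the list but empty vector in the label, which was used.

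Each fold equals the pileup plus 1 over the background pileup (0.941) plus 1, which gave whole pileups to within 1.83e-05. The total number of reads is unknown. Poisson 95% intervals of the pileup, converted to fold, cover counting error only. Exact Clopper-Pearson, order-statistic and density intervals treat genes or peaks as independent, and no interval covers the spread between libraries. Pileups at summits, chosen as maxima, are biased upward. All 44 collagen entries of the RefSeq promoter table were equal to hg38 at their coordinates. Alternative copies were alignments of 261 alternative sequences of at least 10 kb and at most 5% divergence (minimap2 2.31). A gene's promoter value was its promoter peak of highest fold. Every fibrillar and basement membrane gene was named, and from the others the highest folds by subclass, the 10 strongest gene-body peaks, the 5 genes with most gene-body peaks and, from the pathway lists, the 4 highest promoter folds and the genes without a promoter peak; further collagen genes were named after their values were seen. Members, classes and lists were chosen with earlier results of these data known, and the CpG classes, the split by length and the shares of protein-coding genes beside folds of at least 20, strongest summits and AP-1 were added after seeing the data. One marker of the renal list is not reported here, so no count is given over that list. Alternatives were other score minimums, promoter windows, TSS sets and classes. Of 200 simulated promoter genes, 200 were recovered. Python 3.11.15, pandas 2.3.3, numpy 2.4.6, scipy 1.17.1, pysam 0.24.0 and matplotlib 3.10.9 were used.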

Additional observations from a re-analysis of the deposited data

How the results depend on the processing

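No paired analysis was possible because a single sample had been measured. Of the values for the classes and lists, 123 moved by less than their interval under the alternatives and 15 moved more. With a score above 100, gene-body peaks per 100 kb were 2.36 for all collagens, 1.97 for fibrillar, 2.89 for basement membrane and 2.31 for other collagens (1.85 for protein-coding genes). With a score above 200, they were 1.40, 1.20, 1.99 and 1.26 in that order (1.16 for protein-coding genes), a promoter peak remained at 25% of all and 24.0% of other collagens (52.0% of protein-coding genes), and a gene-body peak at 52.3% of all and 56.0% of other collagens (30.9%). The promoter peaks lost there were those of COL4A5, COL4A6, COL6A2, COL9A2, COL14A1, COL17A1 and COL20A1. With promoters of 2.5 kb to both sides, 61.4% of collagens (70.3% of protein-coding genes) and 97.1% of collagen-making genes had a promoter peak, and 9 collagens gained one. COL1A2 and COL11A1 gained one with 1 kb or 2.5 kb to both sides, which gave 36.4% of fibrillar collagens, against 9.09% at the canonical TSS alone. The COL11A1 peak gained was that of fold 22.2, 228709 bp downstream of its canonical TSS. At the canonical TSS alone, 64.7% of collagen-making genes had one. The promoter fold of 1 gene moved past its interval in 5 of 91 cases, among them COL14A1 (30.4 with the wider promoter) and COL13A1 (7.21 at the canonical TSS). A score minimum could not move such a fold, as it either kept the highest peak or dropped the gene. Genes that lost their promoter peak are not among the 91 cases: 4 with a score above 100, 7 above 200 and 6 at the canonical TSS alone. Motif shares in windows of 100 bp to each side moved past their interval in 9 of 22 cases, as the windows were longer; at promoter summits these were AP-1 (31.8%) and the hypoxia element (27.3%). The other causes were not tested. Sites below fold 5.15, sequence with an alternative copy, and the spread between libraries were beyond this list.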
